A study of Homo sapiens with 6 samples.

Results

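The T cell receptor beta locus and the CD3 complex were described in methotrexate (MTX)-resistant and parental K562 cells through 10 genes: TRBC1, TRBV27, PRSS1 and PRSS2 of the locus, CD3D, CD3E, CD3G and CD247, and the kinases LCK and ZAP70. Every probe set whose annotation names one of them was taken, shared ones included, which gave 16 of the 54675 probe sets on the array. The genes were chosen because the locus and CD3D were already known to differ between resistant and parental arrays, so their values are given as a description, without a test, and tests are given only for other genes. K562, an established human cell line that the labels class as erythroblastic leukemia, was derived from chronic myeloid leukaemia at the blast stage. Resistant cells (3 arrays) had been selected with stepwise concentrations of MTX until they grew in a dose that the labels write as 10e-5M. They were kept in a selective medium lacking glycine, hypoxanthine and thymidine, with dialyzed serum. Parental cells (3 arrays), sensitive to MTX, were kept in Ham's F12 with ordinary serum, so that the 2 media and the response to MTX cannot be told apart. The sources do not tell whether the replicates were grown apart, nor whether the resistant cells are 1 clone, and the tests given below for other genes therefore rest on the spread between these arrays, which may be technical.

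On a T cell, the receptor is a pair of variable chains, most often alpha and beta, that bind antigen and have hardly any cytoplasmic part of their own. The CD3 chains and the CD247 (zeta) chain carry the signal: LCK phosphorylates their tails, and ZAP70 docks onto the phosphorylated tails and passes the signal on. The beta chain is assembled from variable, diversity and joining segments by recombination in the thymus, and the same locus holds the genes of the pancreatic trypsinogens between its variable segments and its constant regions. K562 belongs to the erythroid and megakaryocytic branch of blood formation, outside the T lineage.

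Each signal was divided by the median signal of its array, and levels are multiples of that array median. Probe sets of genes that are not expressed also give a signal on this scale, near or below 1, so the size of a fold against such a value is uncertain. The median signals were between 10.2 and 12.5 on the resistant arrays and between 12.7 and 14.3 on the parental arrays. Parental 1 stood apart: across the 26692 probe sets whose level averaged at least 1 array median, its Spearman correlation with parental 2 and parental 3 was 0.899 and 0.889, while these correlated at 0.969 with each other, and resistant arrays at 0.941 to 0.968 among themselves. Erythroid markers were read to describe the cells, and they do not establish the identity of the line. Of 9 tested, HBZ and GATA1 are given here, and HBE1, which fell in resistant cells, is given below. HBZ, the embryonic zeta globin, had a signal of 714, 620 and 662 array medians in resistant cells and 551, 653 and 617 in parental cells, and GATA1, the erythroid master factor, had 42.0, 26.5 and 22.5 in resistant cells and 41.8, 60.7 and 54.9 in parental cells.

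The 7 probe sets that name TRBC1, TRBV27, PRSS1 or PRSS2, called locus probe sets here, had a signal between 0.048 and 2.12 array medians in resistant cells, and every parental array lay above every resistant array in each of them. CD3D behaved likewise. The other 8 probe sets, for CD3E, CD3G, CD247, LCK and ZAP70, overlapped between the groups and stayed between 0.0588 and 1.28 in resistant cells and between 0.0763 and 1.33 in parental cells. Thus 8 of the 16 probe sets had all resistant arrays below all parental arrays, and 0 had them all above, where 8.74% of all probe sets other than the manufacturer's controls had all resistant arrays below, and 12.3% of those tested. Because the genes were chosen on this comparison, nothing is read from this count. Only 7 of the 16 reached the mean level of 1 array median over the 6 arrays that the test of other genes asks for, 6 of the locus and CD3D, and 9 did not. That mean covers both groups, and the 7 owe their level to the parental arrays. Their means were 0.806 to 1.45 in resistant cells and 35.7 to 201.0 in parental cells. The median log2 difference, resistant minus parental, was -5.73 over the 7 locus probe sets (-7.28 to -3.33) and 0.41 over the 8 that overlapped (-0.37 to 1.07), against 0.03 over all tested probe sets.

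**Figure D1:**
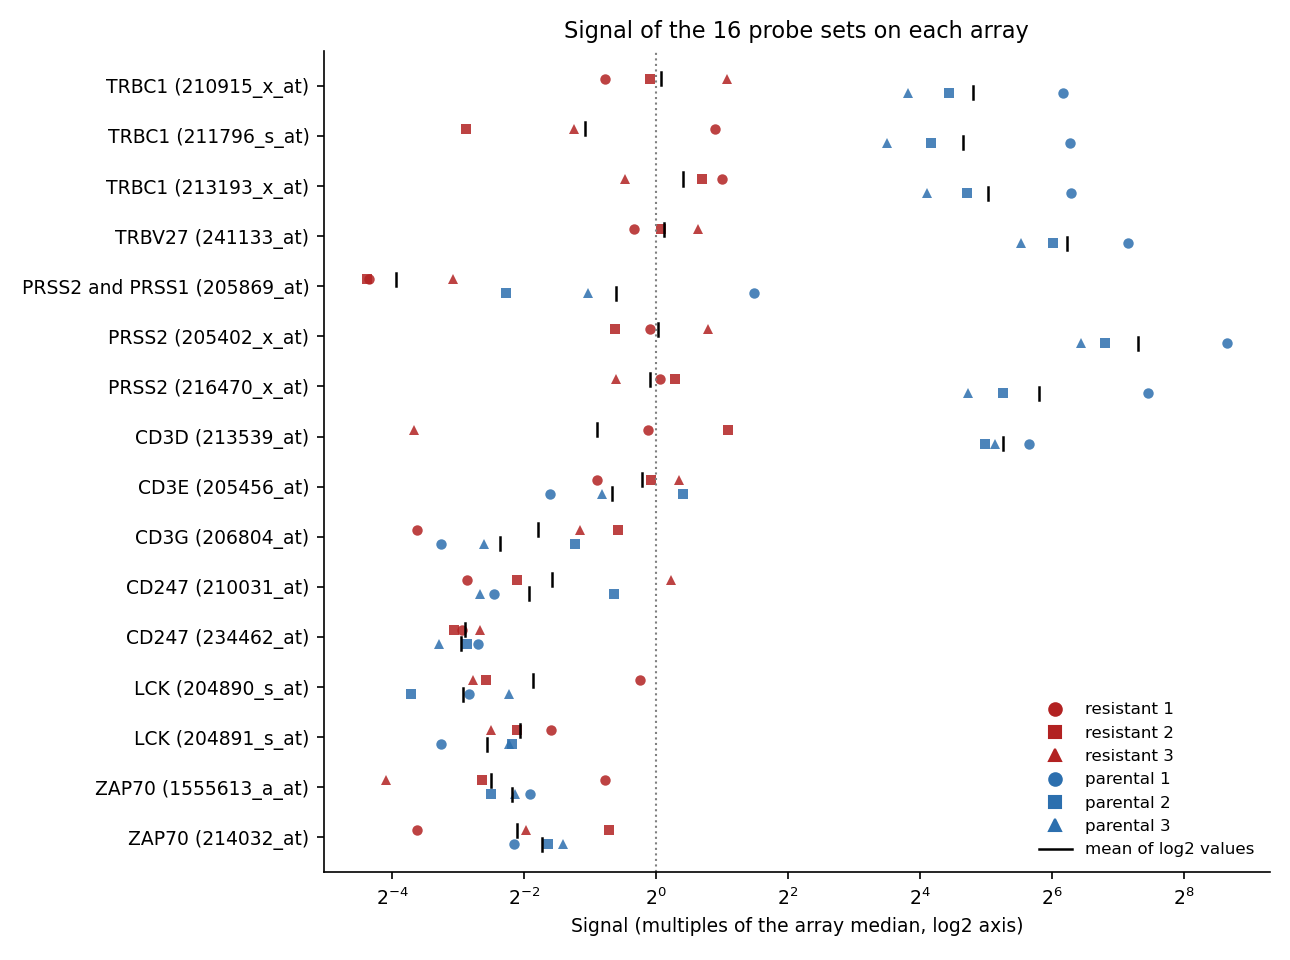
Signal of the 16 probe sets (x axis, multiples of the array median, log2 scale) on 3 resistant (red) and 3 parental (blue) arrays, with the mean of the log2 values as a black bar and a dotted line at the array median. The upper 8 rows, TRBC1 to CD3D, have every red point left of every blue point, and the lower 8 rows, CD3E to ZAP70, overlap.

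TRBV27 is one of the variable segments from which the beta chain is built. Its probe set (241133_at) had 0.797, 1.06 and 1.55 array medians in resistant cells, against 143.0, 64.7 and 46.5 in parental cells. The means were 1.13 ± 0.382 in resistant cells and 84.7 ± 51.2 in parental cells (SD, n = 3 each), a log2 difference of -6.11 (SE 0.56), so that parental cells were 69.1-fold higher. The lowest parental array was still 30.0 times the highest resistant array. The resistant arrays lay at the array median, whereas all parental arrays were well above it.

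TRBC1 encodes the first of the 2 constant regions of the beta chain and was read by 3 probe sets. The first (210915_x_at) had 0.585, 0.936 and 2.12 array medians in resistant cells, against 72.4, 21.7 and 14.1 in parental cells. The second (213193_x_at) had 2.0, 1.62 and 0.725 in resistant cells, against 78.5, 26.2 and 17.3 in parental cells. The third (211796_s_at) had 1.86, 0.136 and 0.422 in resistant cells, against 77.7, 18.0 and 11.3 in parental cells. All 3 gave the same order of the parental arrays, with parental 1 highest and parental 3 lowest, while the resistant arrays took a different order in each. Their log2 differences were -4.74 (SE 0.89), -4.63 (SE 0.79) and -5.73 (SE 1.38), or 26.7-fold, 24.8-fold and 53.0-fold higher levels in parental cells. The third has the widest spread between resistant arrays. The suffixes of these IDs mark probes that can bind related transcripts, and TRBC1 and its near-identical copy TRBC2 could not be told apart here.

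PRSS1 and PRSS2 encode cationic and anionic trypsinogen, the precursors of trypsin that the acinar cells of the pancreas secrete. In the annotation of assembly GRCh38.p14, PRSS1 follows TRBV27 with 3 annotated genes between them, PRSS2 follows PRSS1 with 2 between them, and TRBC1 follows PRSS2 with 8 between them. The first PRSS2 probe set (205402_x_at) had 0.943, 0.648 and 1.73 array medians in resistant cells, against 403.0, 112.0 and 87.4 in parental cells. Among the 16 it had the lowest log2 difference, -7.28 (SE 0.8), which is 155.0-fold, and it stood at rank 5 from the bottom among all probe sets. The second (216470_x_at) had 1.04, 1.22 and 0.657 in resistant cells, against 176.0, 38.3 and 26.5 in parental cells, a log2 difference of -5.9 (SE 0.88). For both probe sets the resistant arrays scattered about the array median, and the lowest parental array was 50.7 and 21.7 times the highest resistant array. The probe set that names PRSS1 and PRSS2 together (205869_at) was far dimmer, with 0.0488, 0.048 and 0.118 in resistant cells, against 2.79, 0.206 and 0.488 in parental cells. Only parental 1 exceeded the array median there, and its log2 difference of -3.33 (SE 1.19) is a difference between values mostly in the range of background. No probe set names PRSS1 alone, so that its own level is not separated from that of PRSS2.

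The bases just upstream of the trypsinogen genes are shown because PRSS1 and PRSS2 lie in the same stretch of the locus and share a probe set. Each is the 250 bases before the annotated start in the RefSeq annotation of GRCh38.p14, and lies at chr7:142749222-142749471 for PRSS1 and chr7:142770720-142770969 for PRSS2, both on the plus strand. Capitals mark matches to TATAAA, to the E-box CACCTG and to GATA words (GATA with A or T before it and A or G after it), each searched on both strands, motifs picked after the sequences had been seen.
PRSS1: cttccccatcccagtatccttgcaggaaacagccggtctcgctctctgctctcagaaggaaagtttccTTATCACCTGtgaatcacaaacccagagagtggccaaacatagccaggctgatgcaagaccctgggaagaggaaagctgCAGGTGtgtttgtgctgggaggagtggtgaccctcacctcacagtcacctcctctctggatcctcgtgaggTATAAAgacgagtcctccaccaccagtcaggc
PRSS2: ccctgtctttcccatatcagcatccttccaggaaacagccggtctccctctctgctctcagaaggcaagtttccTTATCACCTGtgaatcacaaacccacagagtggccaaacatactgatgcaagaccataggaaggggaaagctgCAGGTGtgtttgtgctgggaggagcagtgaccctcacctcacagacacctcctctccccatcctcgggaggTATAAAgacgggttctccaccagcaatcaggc
Aligned end to end, the pair was identical at 222 of 256 columns (86.7%), with 12 columns of gaps. Both hold TATAAA from base -32 to base -27 relative to the start, and 10.7% of the 35116 promoter windows of the same length hold it. Both hold CACCTG on the opposite strand from -103 to -98 and once more further upstream, from -178 to -173 in PRSS1 and from -172 to -167 in PRSS2, and 17.5% of windows hold it. That upstream E-box overlaps a GATA word on the opposite strand, TGATAA, and 22.3% of windows hold one of the GATA words. These matches describe the letters only.

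CD3D encodes the delta chain of CD3. Its 1 probe set (213539_at) had 0.919, 2.14 and 0.0784 array medians in resistant cells, against 50.3, 31.9 and 35.2 in parental cells. The means were 1.05 ± 1.04 in resistant cells and 39.1 ± 9.83 in parental cells (SD, n = 3 each), a log2 difference of -6.16 (SE 1.45), or 71.5-fold. The parental arrays agree more closely with each other than at any locus probe set, with parental 1 at 1.5 times the mean of parental 2 and parental 3 on the log2 scale. The resistant arrays are spread from 0.0784 to 2.14 array medians. Its 250 upstream bases lie at chr11:118342706-118342955 on the minus strand and hold 1 GATA word, AGATAG from -126 to -121, in capitals. They hold no match to TATAAA or CACCTG.
CD3D: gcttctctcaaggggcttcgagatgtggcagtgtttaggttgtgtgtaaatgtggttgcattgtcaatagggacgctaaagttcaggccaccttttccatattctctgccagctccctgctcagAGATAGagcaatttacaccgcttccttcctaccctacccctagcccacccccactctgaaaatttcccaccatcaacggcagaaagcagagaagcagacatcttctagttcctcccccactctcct

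CD3E and CD3G, the epsilon and gamma chains, lie next to CD3D on 11q23 and CD3E pairs with either of the others in the receptor complex. CD3E (205456_at) had 0.537, 0.952 and 1.28 array medians in resistant cells, against 0.329, 1.33 and 0.567 in parental cells. CD3G (206804_at) had 0.0813, 0.672 and 0.451 in resistant cells, against 0.105, 0.427 and 0.165 in parental cells. Neither shows the gap seen for CD3D, and the groups overlap in both. CD247, the zeta chain, had 0.138, 0.232 and 1.17 in resistant cells and 0.182, 0.641 and 0.157 in parental cells with one probe set (210031_at). With the other (234462_at) it had 0.13, 0.12 and 0.157 in resistant cells and 0.154, 0.137 and 0.102 in parental cells. These values lie at or below the array median in almost every array, so CD3D was the 1 gene of the 4 receptor-associated chains that was clearly above it in parental cells.

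The kinases were dim in both groups. LCK, which starts the signal, had 0.846, 0.168 and 0.147 array medians in resistant cells and 0.14, 0.0763 and 0.213 in parental cells (204890_s_at), and 0.333, 0.232 and 0.176 in resistant cells and 0.105, 0.221 and 0.213 in parental cells (204891_s_at). ZAP70, which binds the phosphorylated chains, had 0.585, 0.16 and 0.0588 in resistant cells and 0.266, 0.176 and 0.228 in parental cells (1555613_a_at), and 0.0813, 0.608 and 0.255 in resistant cells and 0.224, 0.321 and 0.378 in parental cells (214032_at). The log2 differences ran from -0.37 to 1.07 over these probe sets and those of CD3E, CD3G and CD247, and none of them reached the level that the test asks for. Detection calls of the array software were not used here, so these genes are called dim and not absent.

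The parental arrays differed among themselves at the locus. Parental 1 was the highest parental array in 7 of 7 locus probe sets, where it was the highest in 43.9% of the tested probe sets, and it was at least 2-fold above the mean of the other two parental arrays in 7 of 7, against 10.2% of the tested probe sets. The 7 are not independent readings. Several of them read the same gene, and 5 of the 7 carry a suffix for probes that related transcripts can share. The median log2 excess of parental 1 was 2.05 at the locus and 0.06 over all tested probe sets. In 6 of the 7, parental 2 also exceeded parental 3, which held for 63.8% of tested probe sets. The excess was 2.61-fold for TRBV27, 3.69-fold to 5.44-fold for TRBC1 and 4.07-fold and 5.52-fold for PRSS2. Parental 2 and parental 3 also lay above every resistant array, so leaving out parental 1 could change only the size of the gap between the groups. Without parental 1 the log2 differences were -5.65 for TRBV27, -4.06, -4.0 and -4.91 for the TRBC1 probe sets in the order above, -6.6 and -5.08 for PRSS2, -2.29 for the shared probe set and -5.96 for CD3D. In a bulk sample, fewer cells that carry a transcript and less of it in each cell cannot be told apart, between the groups or between the parental arrays.

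Probe sets of related sequences that name none of the 10 genes were set beside those of the locus. They were tested with limma, a call being an adjusted p under 0.05 with at least a 2-fold difference, and 1.14% of the tested probe sets were called lower and 1.2% higher. PRSS3 encodes mesotrypsinogen and lies on another chromosome, and PRSS3P2 is a trypsinogen pseudogene of the locus that was singled out after its values had been seen. PRSS3 (213421_x_at) had 0.569, 0.76 and 1.22 array medians in resistant cells, against 39.8, 9.4 and 7.62 in parental cells. This probe set was lower in resistant cells, with a log2 difference of -4.13 (SE 0.66, limma adjusted p = 0.0334). The call was kept without parental 1 (adjusted p = 0.0107) but not without any 1 of the other arrays (adjusted p = 0.0501 to 0.132). The second PRSS3 probe set (207463_x_at) had 1.1, 0.72 and 0.235 in resistant cells, against 17.8, 2.99 and 3.26 in parental cells. It was not called (limma adjusted p = 0.113). PRSS3P2 (215395_x_at) had 0.943, 2.22 and 1.7 in resistant cells, against 79.3, 19.7 and 12.9 in parental cells, and fell with a log2 difference of -4.16 (SE 0.7, limma adjusted p = 0.0399). Left out singly, parental 1 and parental 3 kept that call (adjusted p = 0.0166 and 0.047), and each other array ended it (0.107 to 0.127). All 3 trypsinogen probe sets outside the 10 genes carry the suffix for probes shared between related transcripts, as do 5 of the 7 at the locus, and the parental arrays take the same order of parental 1 highest in them. Whether they read transcripts of their own or those of PRSS2 was not tested. If they read PRSS2, their calls only repeat the difference on which the 10 genes were chosen. The 2 remaining probe sets with a TRB segment in their annotation were dim: TRBV16 had 0.146, 0.088 and 0.206 in resistant cells and 0.427, 0.176 and 0.173 in parental cells, and the probe set shared by IL23A and TRBV19 had 0.0976, 0.072 and 0.0686 in resistant cells and 0.469, 0.0916 and 1.3 in parental cells.

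**Figure D2:**
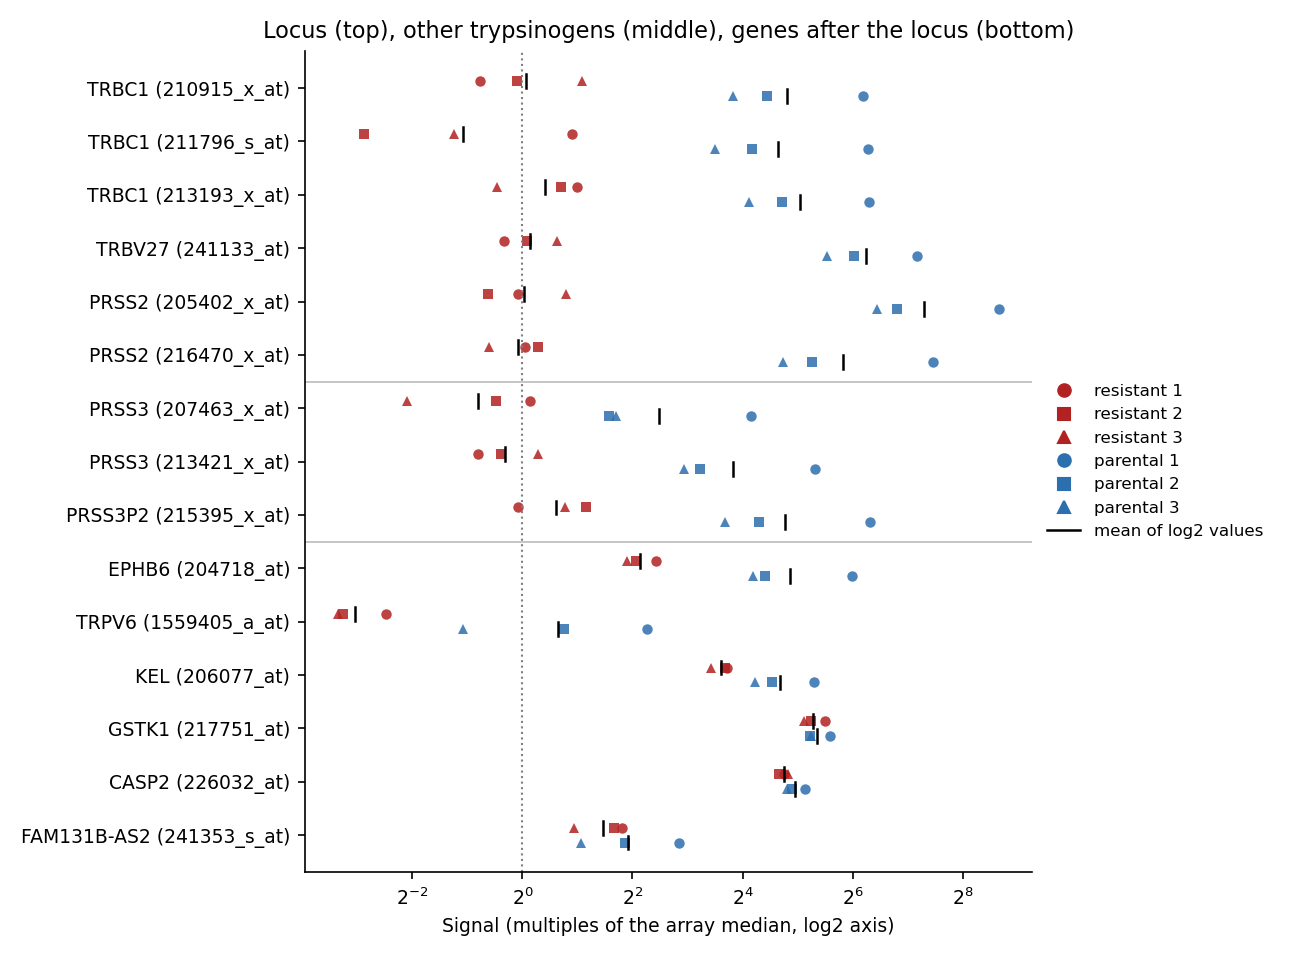
Signal on each array (x axis, multiples of the array median, log2 scale) for the 6 tested probe sets of the locus (top), the 3 trypsinogen probe sets outside the 10 genes (middle) and the 6 tested genes that follow the locus (bottom), with the mean of the log2 values as a black bar. Parental 1 (blue circle) is the highest parental array in every row, and red and blue separate in all rows down to KEL and overlap in the last 3.

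The genes on both sides of the locus were examined to see how far along the chromosome the difference reached. Of the 15 nearest genes on each side with a probe set of their own, 4 before and 6 after the locus were tested, and 1 was called, EPHB6, lower in resistant cells. By representative probe set, 1.47% of 11810 genes were called lower and 1.3% higher. Order and distance of neighbours, here and around CD3D below, count only genes with a probe set of their own. EPHB6, a kinase-dead ephrin receptor and the first gene after the locus, had 5.41, 4.18 and 3.71 array medians in resistant cells, against 63.6, 21.1 and 18.2 in parental cells. It fell in resistant cells by 2.73 on the log2 scale (SE 0.5, limma adjusted p = 0.0492). The groups do not overlap, and parental 1 was 3.25 times the mean of the other two. Without parental 1 the call was kept (adjusted p = 0.0136), and without any 1 of the other arrays it was lost (adjusted p = 0.0689 to 0.171).

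Further along on the same side, 2 genes singled out after their values had been seen also had all resistant arrays below the parental ones. This held for the probe set that represents each gene, and neither was called. TRPV6, an epithelial calcium channel, had 0.179, 0.104 and 0.098 array medians in resistant cells, against 4.79, 1.68 and 0.472 in parental cells (1559405_a_at, log2 difference -3.68, limma adjusted p = 0.0792). It was called without parental 3 (adjusted p = 0.0278), and its second probe set was below the level filter. KEL, the Kell blood group protein of red cells, had 13.1, 12.8 and 10.7 in resistant cells, against 39.2, 23.2 and 18.6 in parental cells (log2 difference -1.08, limma adjusted p = 0.147). Of the tested genes beyond KEL, GSTK1 had a log2 difference of -0.06, CASP2 of -0.2 and FAM131B-AS2 of -0.46. TMEM139, a membrane protein below the level filter, went the other way, with 0.358, 1.13 and 1.13 array medians in resistant cells and 0.105, 0.0687 and 0.11 in parental cells. The median over the 6 tested genes after the locus was -0.77 (-3.68 to -0.06), and over the 4 before it 0.35 (-0.01 to 0.84).

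Before the locus the nearest tested gene was TAS2R5, a bitter taste receptor 9 genes away when only genes with a probe set of their own are counted. It had 1.66, 1.58 and 1.19 array medians in resistant cells, against 0.818, 0.481 and 1.39 in parental cells (log2 difference 0.84, limma adjusted p = 0.332). SSBP1, a mitochondrial DNA-binding protein named after its values had been seen, had 247, 200 and 253 in resistant cells and 239, 241 and 219 in parental cells, with a log2 difference of -0.01. Of the genes between TAS2R5 and the locus with a probe set of their own, none was bright enough to be tested. The 20 untested neighbours on both sides lay between 0.0325 and 1.7 in resistant cells and between 0.0305 and 1.7 in parental cells. At an unadjusted p under 0.05, 0 of the 4 genes before the locus and 3 of the 6 after it were lower, where 9.97% of all tested genes were. Of the 3, TRPV6 reached the level filter only through the parental arrays. TMEM139, which went the other way, was not tested, so this count depends on the filter.

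**Figure D3:**
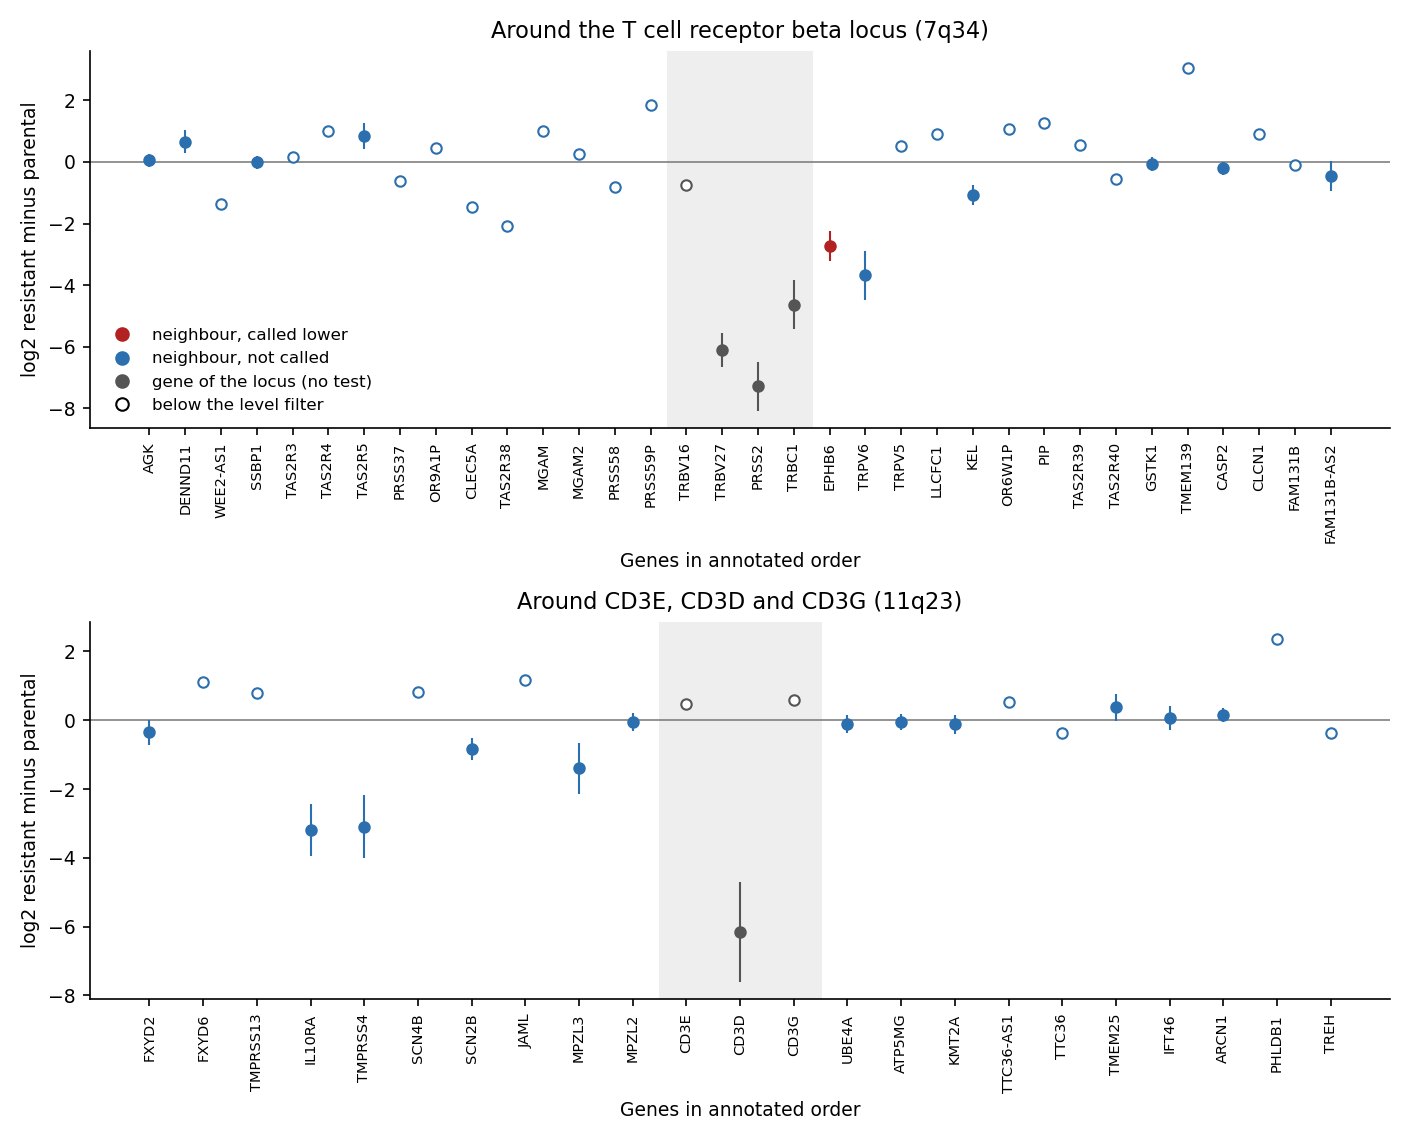
Log2 difference, resistant minus parental, of each gene in annotated order around the T cell receptor beta locus (top) and around CD3E, CD3D and CD3G (bottom), with the genes of the region on grey. Bars are standard errors (of the limma fit for neighbours, of the spread of the arrays for grey points) and open points fell below the level filter. EPHB6, TRPV6 and KEL follow the locus at -2.73, -3.68 and -1.08, and UBE4A and MPZL2 beside the CD3 genes lie near 0.

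Around CD3D, the genes on both sides were read in the same way. CD3E and CD3G are adjacent to it and overlapped between the groups. MPZL2, an adhesion protein and the first gene before them, had 1.0, 1.38 and 1.03 array medians in resistant cells and 1.01, 1.05 and 1.46 in parental cells (log2 difference -0.04, limma adjusted p = 0.95). UBE4A, a ubiquitin ligase and the first gene after them, had 60.0, 54.0 and 62.5 in resistant cells and 86.2, 59.6 and 50.3 in parental cells (log2 difference -0.12, limma adjusted p = 0.847). Of 20 neighbours, 12 were tested with limma and 0 were called. At an unadjusted p under 0.05, 3 of the 6 tested genes before CD3E and 0 of the 6 after CD3G were lower, against 9.97% of all tested genes, and 0 were higher (1 gene passed with the methods' t-test). The 6 tested genes after CD3G had log2 differences of -0.12 to 0.37, and the 6 before CD3E of -3.19 to -0.04, with a median of -1.12. Of the 6 before CD3E, the 3 with the lowest log2 differences are described, chosen after their values had been seen. IL10RA, the interleukin 10 receptor, had the lowest. It had 0.789, 0.616 and 0.147 in resistant cells, against 8.25, 2.69 and 2.43 in parental cells (limma adjusted p = 0.0951), and it lay 7 genes away. TMPRSS4, a membrane protease 6 genes away, had 0.447, 0.432 and 0.0588 in resistant cells, against 0.79, 2.8 and 3.2 in parental cells (log2 difference -3.09, limma adjusted p = 0.152). MPZL3, a relative of MPZL2 that lies 2 genes away, had 2.68, 1.12 and 1.3 in resistant cells, against 13.2, 2.31 and 2.37 in parental cells (log2 difference -1.4, limma adjusted p = 0.365). For IL10RA and TMPRSS4 the groups do not overlap, and for MPZL3 they do. MPZL3 was not among the 3 lower at an unadjusted p under 0.05. The third of those was SCN2B, 4 genes away (log2 difference -0.84, limma adjusted p = 0.242). IL10RA, TMPRSS4 and SCN2B all had resistant means below 1 array median. They reached the level filter through the parental arrays, so that count depends on the filter.

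Further receptor genes and the wider signalling pathway were read from lists of genes. Of 18 genes or segments of receptor chains, which include TRBC2, TRBV10-2, TRBV19 and TRBV24-1 of the beta locus, 4 had a probe set of their own and 1 was tested, PTCRA, the surrogate alpha chain of immature T cells. It had 1.62, 2.11 and 1.74 array medians in resistant cells, against 3.49, 2.64 and 4.5 in parental cells, and was not called (log2 difference -0.93, limma adjusted p = 0.142; unadjusted it was under 0.05 with limma and with the methods' t-test). No probe set named TRAC, the constant region of the alpha chain, alone.

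Of 46 genes of T cell receptor signalling outside the 10, 43 were on the array and 30 were tested. With limma, 1 rose and 1 fell, where 1.3% of all tested genes were called higher and 1.47% lower. At an unadjusted p under 0.05, 3 were higher and 4 lower. The median log2 difference was -0.22, against 0.03 over all tested probe sets. UBASH3B, a phosphatase that acts on ZAP70 and SYK, had 13.9, 11.3 and 13.3 array medians in resistant cells, against 2.82, 2.24 and 4.16 in parental cells. It rose with a log2 difference of 2.1 (SE 0.28, limma adjusted p = 0.0195), and its 4 tested probe sets were all called higher, the 5th being below the filter. The call was kept without parental 1 or parental 3 (adjusted p = 0.0311 and 0.0269) and lost without parental 2 or any 1 resistant array (0.0685 to 0.0786). RASGRP1, the exchange factor that activates RAS downstream of the receptor, had 0.106, 0.032 and 0.0588 in resistant cells, against 0.413, 2.79 and 3.0 in parental cells. It fell with a log2 difference of -4.7 (SE 0.85, limma adjusted p = 0.0476), a call kept without parental 1 (adjusted p = 0.00625), lost without any 1 resistant array (0.0999 to 0.167), and not tested without parental 2 or parental 3, when its level fell short. All its resistant arrays lay far below the array median, and the difference shrank to -2.58 with a pseudocount of 0.25 and -1.38 with one of 1, neither called (adjusted p = 0.0644 and 0.0722), nor was it called with an intensity trend in limma (0.204). Under these 3 settings LCP2 was called and RASGRP1 was not. Unlike at the locus, parental 1 was the lowest parental array for RASGRP1.

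A few more genes of this list were singled out after their values had been seen. LCP2, the SLP-76 adaptor that ZAP70 phosphorylates, had 1.25, 1.07 and 1.3 array medians in resistant cells, against 9.85, 5.34 and 3.15 in parental cells, and was not called (log2 difference -2.19, limma adjusted p = 0.0577). PTPRC, or CD45, the phosphatase that keeps LCK active, split the parental arrays: it had 6.5, 7.62 and 9.6 in resistant cells, against 60.2, 0.374 and 0.402 in parental cells (log2 difference 1.91, limma adjusted p = 0.631). Parental 1 was far above all other arrays, and parental 2 and parental 3 were below every resistant array, for all 3 tested PTPRC probe sets. FYN, a kinase of the SRC family like LCK, was well above the array median in both groups, with 31.5, 27.4 and 32.0 in resistant cells and 24.9, 45.9 and 40.6 in parental cells. Without parental 1, 6 of 29 tested genes of the list were called: UBASH3B and PTPRC higher (for PTPRC a log2 difference of 4.33, adjusted p = 0.00234), and LCP2, UBASH3A, RASGRP1 and MALT1 lower. Calls over all tested probe sets rose as well in that setting, from 622 of 26692 to 1080 of 26597. Leaving out parental 3 gave 2 calls in the list, and leaving out any other array gave 0. The 13 genes below the level filter, among them CD4, CD8A, CD28, CD2, CD5 and CD7, lay between 0.032 and 1.7 in resistant cells and between 0.021 and 1.99 in parental cells.

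The factors that drive T cell development gave 11 tested genes of 19 on the array, with 0 called by limma and a median log2 difference of 0.27. At an unadjusted p under 0.05, 3 were higher and 0 lower (3 with the methods' t-test), where 1185 of the 11810 tested genes were higher. MYB, a factor of blood progenitors singled out after its value had been seen, was the closest to the threshold, with 117, 96.0 and 123 array medians in resistant cells, against 53.2, 50.7 and 51.9 in parental cells (log2 difference 1.1, limma adjusted p = 0.0527). GATA3, which directs cells to the T lineage, had 2.4, 2.09 and 3.53 in resistant cells, against 30.3, 5.0 and 2.31 in parental cells (log2 difference -1.44, limma adjusted p = 0.437), and the groups overlap. RAG1, RAG2 and DNTT, which carry out recombination of the receptor segments, were below the level filter.

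Markers of cell types were also read as signals summed over the probe sets of a list. The sum of the T cell receptor signalling list was 334, 291 and 334 array medians in resistant cells and 392, 381 and 328 in parental cells. It cannot be read as a T cell signal. It includes genes bright in both groups, such as FYN, GRB2 (means 24.3 in resistant and 30.5 in parental cells) and BCL10 (29.3 and 24.3). CD4, CD8A, CD28, CD2, CD5 and CD7 were below the level filter. The sum of the B cell list was 6.52, 5.46 and 6.87 array medians in resistant cells and 4.49, 11.1 and 9.69 in parental cells (2 genes tested, 0 called), and that of the NK cell list was 12.1, 8.56 and 8.96 in resistant cells and 10.9, 11.8 and 7.8 in parental cells (3 tested, 0 called). At an unadjusted p under 0.05 both lists still had 0 genes, by limma and by the methods' t-test. The sum of the monocyte and granulocyte list was 25.1, 25.3 and 14.6 in resistant cells and 47.8, 69.8 and 65.4 in parental cells (2 tested, 0 called, 1 lower at an unadjusted p under 0.05 by limma and 1 by the methods' t-test), and most of it was LYZ, lysozyme. The sum of the pancreatic acinar list was 16.2, 13.8 and 13.8 in resistant cells and 51.0, 20.4 and 22.4 in parental cells. Of this list, 6 of 18 genes were tested and 1 was called, PRSS3, whose probe set was not told apart from PRSS2. The 17 others lay between 0.049 and 3.24 in resistant cells and between 0.042 and 2.5 in parental cells. The other digestive enzymes thus stayed dim where PRSS2 was bright. Of 9 tested erythroid markers, HBE1, the embryonic epsilon globin, fell in resistant cells, with 61.6 ± 20.8 array medians in resistant cells and 601.0 ± 60.6 in parental cells (SD, n = 3 each, log2 difference -3.35, limma adjusted p = 0.00562), and 0 rose.

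**Figure D4:**
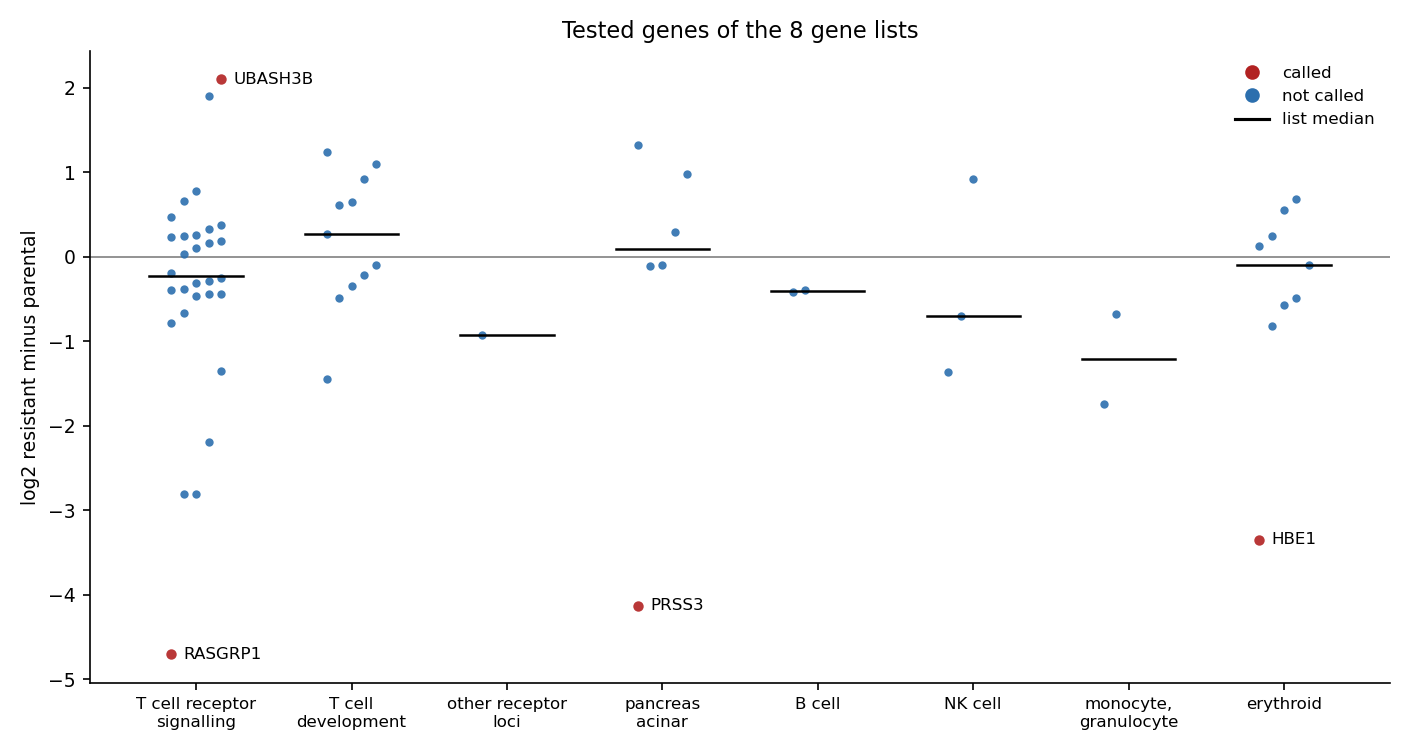
Log2 difference, resistant minus parental, of each tested gene in the 8 gene lists (red, called; blue, not called; black bar, list median). UBASH3B lies above 0 at 2.1, and RASGRP1, PRSS3 and HBE1 lie below it at -4.7, -4.13 and -3.35. Whether the PRSS3 probe set reads PRSS3 or PRSS2 was not tested.

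Genes with the pattern most like that of PRSS2 (205402_x_at) were found by the root mean square distance between log2 profiles, centred on their means, over the 6 arrays. The 5 nearest outside the 10 genes were SCRN1 (0.959), MYO3B (1.04), CCDC26 (1.05), CALD1 (1.08) and LYVE1 (1.15), distances on the log2 scale. SCRN1 had 0.187, 0.152 and 0.529 array medians in resistant cells, against 18.5, 10.1 and 7.54 in parental cells, with the parental arrays in the same order as at the locus. In MYO3B, CCDC26, CALD1 and LYVE1, parental 2 was the highest parental array instead. The nearest to CD3D were SNX10 (0.609), TRIM29 (0.819), SNORD114-3 (1.02), FHL2 (1.03) and CALD1 (1.07). SNX10 had 0.593, 0.848 and 0.049 in resistant cells, against 10.7, 12.1 and 8.59 in parental cells, with resistant 3 the lowest as in CD3D.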

How the data were processed

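Expression was measured on 6 arrays, 3 of MTX-resistant and 3 of parental K562 cells, and the groups and replicate numbers come from the labels. The deposited values were intensities, 1 linear signal per probe set, which the authors made with MAS5 (version not given in the sources used here). Their methods divide each value by the 50th percentile of its array, and this step was repeated on the intensities. Scaled values were floored at 0.01 before log2 was taken. The test left out 62 control probe sets and those averaging under 1 array median over all arrays, which kept 26692. Groups were compared with limma 3.58.1 in R 4.3.3 (lmFit and eBayes, two-sided, Benjamini-Hochberg over all tested probe sets), and a call was an adjusted p under 0.05 with a fold of at least 2. Precision is limited by the number of arrays, and the fit was tested on simulated data. Errors of levels are SD.

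Of all probe sets, 41097 named 1 gene, 1801 several and 11777 none, and gene IDs of 41043 were found in the GRCh38.p14 annotation, used for names, gene order and the RefSeq promoter windows, which it held for PRSS1, PRSS2 and CD3D. A gene in a list or neighbourhood is represented by its brightest tested probe set that names it alone. The 10 genes, the lists and the tests were chosen with earlier results of these data known. Lists are textbook sets, and TAL1 stands in both the erythroid and the T cell development list. Named outside the 10 genes are every called gene of a list or neighbourhood (up to 5 a direction), the nearest tested gene on each side, and the 5 profiles nearest to PRSS2 and to CD3D. Other genes were named after their values had been seen. They include the erythroid and cell type markers, the genes listed as dim, GSTK1, CASP2, FAM131B-AS2, TMEM139, FYN, UBASH3A and MALT1.

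The choices varied were the scaling (none, the 75th percentile, or quantile normalization), the level filter (none, or 2 array medians), a pseudocount (0.25 or 1), the variance model of limma (intensity trend with robust prior), the test (the methods' t-test), a block for the replicate number, the arrays (each left out once) and the removal of probe sets with shared-sequence suffixes. What is called the methods' t-test was an equal-variance t-test on the log2 values and the level filter used here. The authors' filter on control strength and its error model were not repeated, so the counts of this t-test are not those of the authors.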

Additional observations from a re-analysis of the deposited data

How the results depend on the processing

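All 8 locus and CD3D probe sets kept a negative log2 difference under all 11 alternatives run on them, with ranges of -7.71 to -6.27 and -6.44 to -4.88 for PRSS2, -6.46 to -5.18 for TRBV27, -7.16 to -4.4 for CD3D and -4.16 to -0.82 for the dim probe set shared by PRSS1 and PRSS2. Since the resistant and parental arrays of these 8 do not overlap, leaving out an array or adding a pseudocount could not reverse that sign. Under those alternatives only the size of the difference could change. The count of probe sets that did not overlap was 8, or 9 without resistant 1, and leaving out an array could not lower it. Over all tested probe sets, the 622 calls became 174 with no level filter, 1191 with a pseudocount of 1, 1133 with an intensity trend, 126 with the methods' t-test, 394 without shared-sequence probe sets and 204 to 1080 with 1 array left out, and the share of higher calls was 51.3%, but 39.5% with the values as deposited and 65.1% with the methods' t-test. Around the locus the 1 call became 0 with the values as deposited, with no level filter and with the methods' t-test, and 0 to 1 with 1 array left out. Around CD3D the 0 calls became 1, IL10RA, with a pseudocount of 1 and with an intensity trend. The 2 signalling calls became 1 with quantile normalization, 0 with no level filter and with the methods' t-test, and 0 to 6 with 1 array left out. The 0 calls in T cell development became 1, MYB, with quantile normalization, a filter at 2 array medians, a pseudocount of 0.25 or 1 and an intensity trend. The 1 acinar call, PRSS3, became 0 with no level filter, with the methods' t-test and without shared-sequence probe sets, which removes every tested gene of that list, and 0 to 1 with 1 array left out. With the replicate number as a block there were 269 calls over all probe sets and 0 around the locus, among signalling genes and among acinar genes. The numbers gave no sign of pairing the arrays, since deviations from the group means of same-numbered arrays correlated at -0.007, -0.025 and -0.006. The causes of these shifts were not tested. Over the alternatives the adjusted p ran from 0.0077 to 0.171 for EPHB6, from 0.0031 to 0.102 for UBASH3B, from 0.00625 to 0.204 for RASGRP1, from 0.00462 to 0.149 for PRSS3, from 0.00803 to 0.16 for PRSS3P2 and from 8.91e-05 to 0.0621 for HBE1. RASGRP1 and the probe set shared by PRSS1 and PRSS2 had all resistant arrays below the array median, which limits how large a fold can be measured.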
